A study of Mus musculus with 9 samples.

Results

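The colons of 3 mice with experimental colitis that had received human adipose tissue-derived mesenchymal stem cells (AD-MSC) were compared with those of 3 colitis mice that had received phosphate-buffered saline (PBS) alone (control), gene by gene. The comparison covered protein-coding genes whose normalized reads, averaged over the AD-MSC and control groups, reached at least 10. By this rule 13453 of 22571 protein-coding genes, among 38087 genes of all kinds, were members. *Traip*, with a mean of 10.0, lay just inside the limit and *Fbxo41*, with 9.99, just outside it.

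All mice were male C57BL/6 animals, 10 to 12 weeks old, in which dextran sulfate sodium (DSS), a salt that injures the colonic epithelium, had induced colitis. AD-MSC or PBS was injected intravenously 1 day before the medial colon was taken, and the series held 3 further mice that had received umbilical cord tissue-derived MSC (UC-MSC), 9 libraries in all. The injected cells were human and the reads had been mapped to the mouse genome, so that transcripts of the injected cells themselves were not measured here. Colitis was shared by both groups, and no healthy colon was included. For each gene the deposited table gave 1 mean of log2 normalized reads per group, taken over the 3 libraries. A level below is the antilog of that mean, and a difference is the AD-MSC mean minus the control mean on the log2 scale. Since values of single mice were not used here, no spread between mice, no test and no p-value could be computed, and none of the differences has a replicate check. The smallest counting error given for some genes is the standard error on the log2 scale that the number of reads alone would leave.

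MSC are stromal cells that release soluble mediators and are given into the blood in colitis for their effects on immune cells and on repair. The colonic epithelium renews itself from crypt stem cells, which give rise to absorptive colonocytes, to mucus-producing goblet cells and to hormone-producing cells. After injury its cells switch on a repair state with EGFR ligands and wound-associated surface proteins, whereas mature colonocytes burn fatty acids, make ketone bodies and express drug-metabolizing enzymes. Lymphoid follicles, muscle layers, enteric nerves and attached fat are part of the same piece of tissue, so that in this bulk RNA fewer cells of a type and less RNA per cell cannot be told apart.

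The levels of the AD-MSC and control colons were close for most genes. The median difference was -0.0082 with quartiles of -0.22 and 0.20, and 87.8% of members lay within 1.5-fold of each other. At least 2-fold higher in AD-MSC were 204 members (1.52%), and at least 2-fold lower were 251 (1.87%), so that higher genes made up 44.8% of the 2-fold differences. Beyond 4-fold, 13 members were higher and 36 lower. Any difference above 0 was found for 48.9% of members and any below 0 for 51.1%, and these shares are the background against which gene lists are read below. Of the 455 2-fold genes, 369 had a mean under 100 normalized reads. Among the 1180 members with a mean of at least 1000, only 6 were 2-fold higher and 11 2-fold lower. Raw group means, which fit geometric means over the libraries with reads, summed to 8.22202e+06 in AD-MSC and 7.2956e+06 in control. These sums are not the read total of an average library. With these raw means the difference exceeded its own 95% counting limit in 7528 members (56.0%) and in 427 of the 455 2-fold genes. This limit covers counting error only and not the spread between mice.

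**Figure D1:**
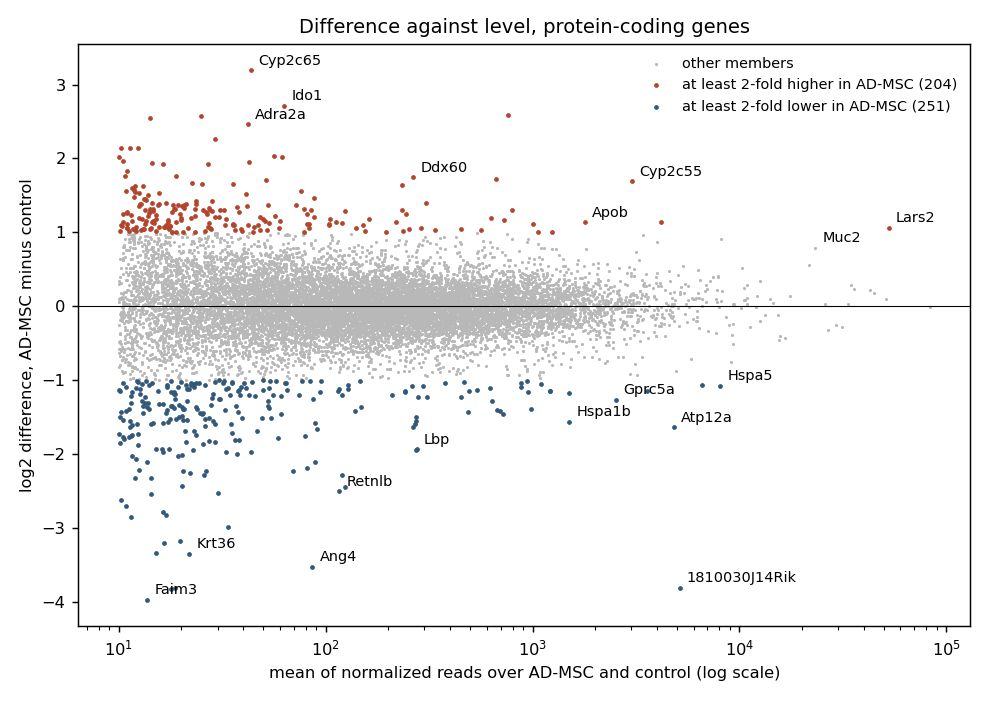
Each point is 1 of 13453 protein-coding genes, with the mean of normalized reads over AD-MSC and control on a log axis against the log2 difference, AD-MSC minus control. Red points are the 204 genes at least 2-fold higher and blue points the 251 at least 2-fold lower and most of both lie under 100 normalized reads. *Cyp2c65* is the highest point and *Faim3*, an Fc receptor for IgM on B cells, the lowest.

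The samples carried the markers of colon. *Epcam*, an epithelial adhesion protein, had 10885 normalized reads in AD-MSC and 10305 in control colons, and *Slc26a3*, the chloride and bicarbonate exchanger of colonocytes, had 6271 and 5871. Several defining markers of other organs were near the floor of the table, which is 1 normalized read. The pancreatic trypsin gene *Prss2*, the bladder gene *Upk2* and the seminal vesicle gene *Svs4* were at 1 in both groups, and *Sis* and *Lct*, digestive enzymes of the small intestine, had 2.28 and 1.90 in AD-MSC, against 2.67 and 4.34 in control. Genes above the floor included the skeletal muscle genes *Acta1* and *Ckm* (27.9 and 36.6 in AD-MSC, against 49.5 and 40.9 in control), the pancreatic colipase gene *Clps* (57.9 against 67.7), the elastase gene *Cela1* (647 in AD-MSC and 952 in control) and the transthyretin gene *Ttr* (66.8 and 72.4). *Lgr5*, the crypt stem cell receptor, was low in both groups at 4.76 and 4.58 normalized reads.

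Genes of B cells were the group with the lowest median in AD-MSC. All 17 measured genes of the list were lower, 14 of them by at least 2-fold, with a median of -1.93. The size of this median depends on genes with few reads, and with a pseudocount of 10 it was -1.36. The 3 genes with a mean of at least 50, *Blnk*, *Ebf1* and *Cd72*, had a median of -0.39. *Blnk* had the most reads of the list, 471 in AD-MSC and 701 in control. Whether the smaller differences of these 3 genes go with their reads or with other cells that express them was not tested. *Cd79a*, a signalling chain of the B cell receptor, had 3.22 normalized reads in AD-MSC colons, against 29.7 in control colons. *Ms4a1*, which encodes CD20, had 6.34 in AD-MSC and 34.2 in control, a difference of -2.43 with a smallest counting error of 0.32. *Cd22*, an inhibitory receptor of B cells, differed by -1.81. *Faim3*, *Tnfrsf13c*, *Cd79b* and *Pax5* were among the genes of this list with at least 1 AD-MSC library at the floor. The members that differed least were *Cd72*, a surface receptor of B cells, at -0.13, *Ebf1*, a transcription factor that stromal cells express too, at -0.39, and *Blnk*, an adaptor of the B cell receptor, at -0.57. *Cxcr5*, which guides B cells into follicles, had 6.27 in AD-MSC and 24.0 in control, and *Cxcl13*, the chemokine it binds, had 54.5 against 107. The list of lymphoid stroma and chemokines had a median of -0.60, with 3 of 11 members higher, among them the B cell survival factor *Tnfsf13b* at 0.62.

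Other lymphocyte genes were divided. Of 12 T cell genes, 5 were higher and the median was -0.49. *Cd3d* and *Cd3e*, chains of the T cell receptor complex, differed by 0.018 and 0.031, whereas *Lef1* and *Tcf7*, transcription factors of naive T cells that other cells also use, differed by -1.69 and -1.34. *Cd8a*, the co-receptor of cytotoxic T cells, was higher, with 14.9 normalized reads in AD-MSC and 6.89 in control. The median of plasma cell genes was -0.23, and *Igj*, the joining chain of secreted IgA, had 522 against 598. The MHC class II list had a median of -0.10, with 5 of 12 genes higher and 3 at least 2-fold lower. Its gene *H2-Ob*, a chain that B cells express, had 4.74 in AD-MSC and 23.8 in control. *H2-Ab1* differed by 0.40 and *Cd74* by 0.16, whereas *H2-Aa* was at -0.17 and *H2-Eb1* at -0.079. For macrophages and monocytes, 11 of 19 genes were higher and the median was 0.053. *Fcgr1*, a high-affinity receptor for IgG, was at 0.81, whereas *Cd14*, a receptor for bacterial lipopolysaccharide, was at -0.78.

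Several markers of blood, attached fat and serosa were also lower in AD-MSC. The summed level of 7 erythrocyte genes was 417 normalized reads in AD-MSC and 540.4 in control, with the globin genes *Hba-a1* and *Hbb-b2* at -1.25 and -1.61. Adipocyte genes were divided, with 6 of 17 higher, a median of -0.36 and summed levels of 3786 in AD-MSC and 3772 in control. *Adipoq*, the fat hormone adiponectin, had 32.5 in AD-MSC and 89.1 in control, and *Cfd*, the complement factor D made by fat cells, had 128 against 398. The mesothelial median was -0.32, and 0.094 over genes that averaged at least 50 reads, and *Upk3b*, a surface protein of the serosa, had 20.7 against 45.0. The list medians of adipocytes, mesothelium, erythrocytes and B cells thus all lay below 0, and their part in the other results was not tested.

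**Figure D2:**
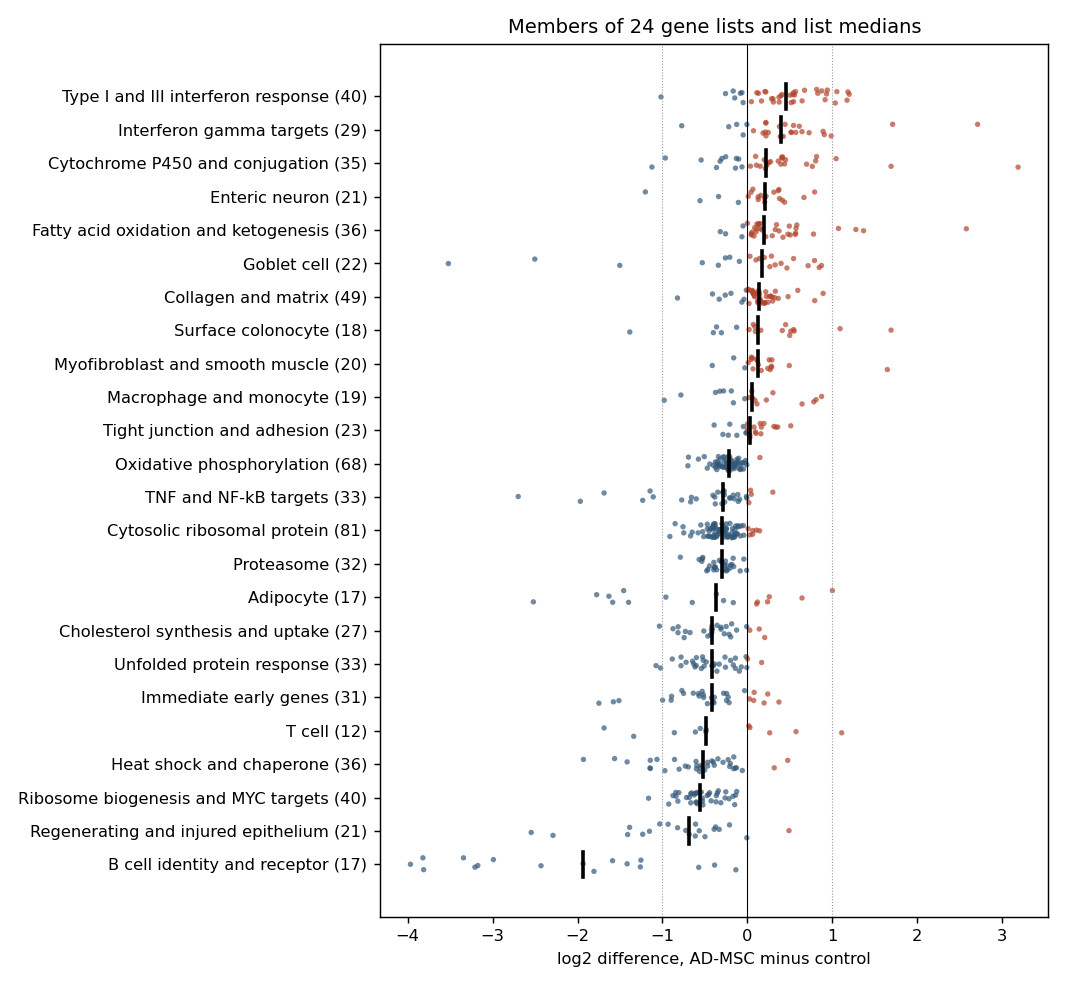
Each point is a gene of 1 of 24 lists, placed at its log2 difference (AD-MSC minus control), red above 0 and blue below 0, and the black bars are list medians with the number of members in brackets. Interferon lists stand at the top with medians of 0.46 and 0.40, and the B cell list at the bottom with -1.93.

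Genes linked to the repair state of the epithelium were mostly lower in AD-MSC. Of 21 genes of regenerating and injured epithelium, 1 was higher and 7 were at least 2-fold lower, with a median of -0.68. *Sprr1a*, a cornified envelope protein induced in wounded mucosa, had 40.9 normalized reads in AD-MSC colons and 199.8 in control colons. *Plaur*, the receptor for urokinase, had 71.0 against 158, and *Clu*, a marker of revival stem cells, had 249 against 509. *Ly6a*, known as Sca-1 and expressed by fetal-like repairing crypts, had 1361 in AD-MSC and 2187 in control, with a smallest counting error of 0.026 for its difference of -0.68. *Anxa1*, an annexin that promotes epithelial restitution, differed by -0.82. The squamous protein gene *Sprr2a1* did not follow, with 12045 against 12092, and the collagen-binding integrin *Itga2* was the one that was higher, at 0.49. *Msln* of this list is also a mesothelial gene, *Clu* is also in the list of lymphoid stroma and *Ptgs2* in that of fibroblasts. For *Ly6d*, a surface protein of squamous cells, 1 AD-MSC library had no read while the other 2 had a mean of 15.5, against 16.3 in control.

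Several further genes that epithelial cells express were also lower. *Gprc5a*, an orphan receptor induced by retinoic acid, had 1482 normalized reads in AD-MSC and 3557 in control. *Sfn*, the epithelial protein stratifin, had 925 against 2087. *Epha2*, a receptor tyrosine kinase of epithelial contacts, had 139.6 against 407, and *Phlda1* had 384 against 1055. *Lbp*, the binding protein for bacterial lipopolysaccharide, had 113 in AD-MSC and 435 in control, a difference of -1.94. *Slpi*, a secreted antiprotease, had 24.4 against 115. The keratins of simple epithelium were also lower but by less, with *Krt19* at -0.43, *Krt18* at -0.25 and *Krt8* at -0.20, whereas *Krt20*, the keratin of mature surface cells, was at 0.16.

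Genes of EGF receptor signalling lay on both sides of 0. The ligand genes *Areg*, *Hbegf* and *Ereg*, which are also in the repair list, and *Nrg4* were lower, and *Areg*, which encodes amphiregulin, had 369 normalized reads in AD-MSC and 981 in control. The ligand genes *Egf*, *Tgfa* and *Btc* were higher by 0.61, 0.30 and 0.25. Of the feedback inhibitors that active signalling induces, *Errfi1* was at -1.10, *Dusp6* at -0.85 and *Spry4* at -0.97, while *Spry1* was at 0.026 and *Dusp4* at 0.21. The receptor gene *Egfr* was nearly equal, with 696 in AD-MSC and 691 in control. *Erbb2*, the partner receptor without a ligand of its own, had 1444 against 833, and *Erbb3* had 2280.0 against 1335. *Grb7*, an adaptor that binds ERBB2 and whose gene lies near *Erbb2* on chromosome 11, had 332 in AD-MSC and 135 in control. The whole list of 24 genes had a median of -0.033 with 12 higher, close to the background share.

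Immediate early genes, which are transcribed within minutes of a stimulus, had a median of -0.42, and 6 of 31 were higher. *Fosl1* had 36.2 normalized reads in AD-MSC and 122 in control, *Fosb* 44.4 against 133, and *Egr1* 764 against 1418. *Jun*, the partner of the FOS proteins, was higher at 0.37. Targets of TNF and NF-kB had a median of -0.28, with 4 of 33 higher. *Il1b*, the cytokine interleukin 1 beta, had 26.1 in AD-MSC and 56.2 in control. *Bcl3* and *Tifa*, regulators within the pathway, had 307 against 678 and 184 against 433. Of the subunit genes of NF-kB, *Rela* was at -0.38, *Rel* at -0.66 and *Nfkb2* at -0.010.

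Chaperone genes were lower as a class. Of 36 heat shock and chaperone genes, 2 were higher and 7 were at least 2-fold lower, with a median of -0.52. *Hspa1b*, an inducible HSP70, had 758 normalized reads in AD-MSC colons, against 2241 in control colons. *Hspa8*, the constitutive HSP70, had 4274 against 8932, and its cochaperone gene *Dnaja1* had 754 against 1664. *Hsph1*, an exchange factor of HSP70, differed by -1.14, and *Hsp90aa1*, the inducible HSP90, by -0.97. The subunits of the chaperonin that folds actin and tubulin lay between -0.59 for *Cct3* and -0.14 for *Cct5*. The 2 that were higher were *Hsf2*, a heat shock transcription factor, at 0.48, and the cochaperone *Dnaja4* at 0.32. *Hspa1a* and *Hspa1b* are near-identical copies, so their single values are less certain than their common direction.

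The chaperones of the endoplasmic reticulum were lower as well. In the unfolded protein response list 2 of 33 genes were higher, and the median was -0.42. *Hspa5*, known as BiP, the main chaperone of this compartment and the sensor of its load, had 5183 normalized reads in AD-MSC and 10917 in control. *Creld2* and *Manf*, secreted proteins of the response, had 306 against 622 and 746 against 1282. *Xbp1*, a transcription factor of the response that secretory cells need, had 977 against 1528. Of the targets of the PERK branch, *Ddit3* differed by -0.013 and *Ppp1r15a* by 0.0037. The list of amino acid response and ATF4 targets was divided, with 9 of 21 genes higher and a median of -0.10. *Ern1*, a sensor kinase, was at 0.17 and its gut form *Ern2* at -0.0052.

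A known promoter element of this response was searched, and some promoters that hold it are shown. The endoplasmic reticulum stress element, searched as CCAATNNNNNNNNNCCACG on both strands, was found in 9 of 26 promoters of the list, against 19 of 10578 member promoters (0.18%) and 0.137% of all 27025 genes with a RefSeq promoter. The 9 genes of the list with a match had a median difference of -0.60, and those without one -0.26. Among all 19 members with a match, 15 were lower and 4 higher, with *Acacb*, an acetyl-CoA carboxylase, at 1.05. The sequences run from 250 bases before to 50 bases after the start of the gene, 5′ to 3′ on the strand of the gene, from RefSeq on GRCm38.p6, and the match, on either strand, is in capitals. They are those of *Hspa5* (chr2:34771840-34772139, plus strand), *Creld2* (chr15:88819396-88819695, plus strand) and *Pdia6* (chr12:17266339-17266638, plus strand), a protein disulfide isomerase gene with 1099 normalized reads in AD-MSC and 1704 in control.
Hspa5: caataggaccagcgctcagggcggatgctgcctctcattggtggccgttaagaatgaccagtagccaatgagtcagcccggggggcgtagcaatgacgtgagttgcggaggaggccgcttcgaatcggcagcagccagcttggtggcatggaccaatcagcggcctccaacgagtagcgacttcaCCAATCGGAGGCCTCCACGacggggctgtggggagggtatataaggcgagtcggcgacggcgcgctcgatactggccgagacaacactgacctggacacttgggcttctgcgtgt
Creld2: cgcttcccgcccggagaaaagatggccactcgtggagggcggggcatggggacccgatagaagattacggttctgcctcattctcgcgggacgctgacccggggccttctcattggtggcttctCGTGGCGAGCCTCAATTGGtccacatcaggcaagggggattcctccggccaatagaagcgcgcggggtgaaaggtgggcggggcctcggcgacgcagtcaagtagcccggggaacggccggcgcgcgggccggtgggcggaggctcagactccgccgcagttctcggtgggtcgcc
Pdia6: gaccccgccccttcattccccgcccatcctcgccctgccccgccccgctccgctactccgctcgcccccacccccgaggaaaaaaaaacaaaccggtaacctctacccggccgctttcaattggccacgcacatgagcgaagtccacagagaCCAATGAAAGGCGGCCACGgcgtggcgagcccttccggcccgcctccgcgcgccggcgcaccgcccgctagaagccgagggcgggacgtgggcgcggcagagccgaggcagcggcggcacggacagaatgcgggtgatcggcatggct

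Genes of ribosome production and protein turnover were lower by small amounts in nearly every member. All 40 genes of ribosome biogenesis and MYC targets were lower, with a median of -0.55. *Ppan*, a factor of large subunit assembly, had 57.8 normalized reads in AD-MSC and 129 in control, and *Nop58*, a core protein of small nucleolar particles, had 439 against 677. *Ncl*, the nucleolar protein nucleolin, differed by only -0.14. Proteins of the cytosolic ribosome lay at a median of -0.30, and 6 of their 81 genes were higher, while those of the mitochondrial ribosome lay at -0.27, with 4 of 75 above 0. None of 32 proteasome genes was higher, and their median was -0.30. Only 1 of 68 nuclear-encoded subunits and factors of the respiratory chain was higher, and their median was -0.22. Cell cycle and DNA replication genes were more divided, with 12 of 36 and 14 of 35 above 0 and medians of -0.063 and -0.11. Genes often taken as references lay on a similar level, with a median of -0.23 and 4 of 18 above 0, among them beta-actin, *Actb*, at -0.32 and the cyclophilin gene *Ppia* at -0.37.

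Many of these short genes shared a feature with the rest of the table, namely a trend with transcript length. With members divided by exonic length into 5 bins of equal size, the shortest bin had a median difference of -0.13 and the longest 0.077, and across 13352 genes Spearman's rho between length and difference was 0.21, a description over genes of the same libraries. Cytosolic ribosomal proteins had a median exonic length of 977 bases and oxidative phosphorylation genes of 977, against 3390.5 for all members. Set against members of the same length bin, the median of oxidative phosphorylation genes became -0.10, that of cytosolic ribosomal proteins -0.18, and that of proteasome genes -0.23. The medians of heat shock genes, ribosome biogenesis and regenerating epithelium were -0.46, -0.48 and -0.57 on this scale. GC content showed almost no trend (rho of 0.020). RNA integrity of each library was not used here, and its part in the trend was not tested.

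**Figure D3:**
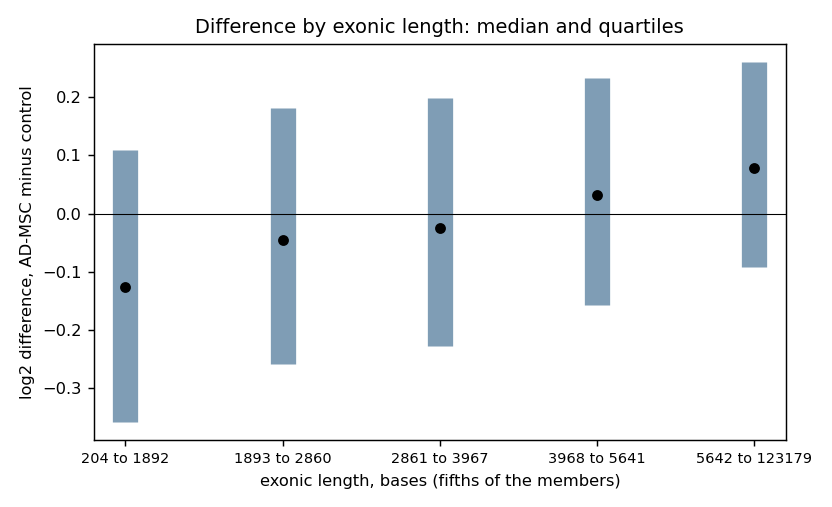
Points are the median log2 difference (AD-MSC minus control) and bars the quartiles of members in each of 5 bins of exonic length in bases, short genes at the left. The median moves with length, between -0.13 in the shortest and 0.077 in the longest bin, within a much wider spread of single genes.

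Cholesterol genes were lower and fatty acid oxidation genes higher. Of 27 genes of cholesterol synthesis and uptake 3 were higher, with a median of -0.41. *Idi1*, an isomerase of isoprenoid synthesis, differed by -1.03, and *Fdps*, which makes farnesyl diphosphate, had 209 normalized reads in AD-MSC and 367 in control. Of 36 genes of fatty acid oxidation and ketogenesis, 32 were higher, 4 of them at least 2-fold, and the median was 0.19. *Vnn1*, a pantetheinase of epithelial cells, had 25.5 in AD-MSC and 10.5 in control, and *Acot2*, a mitochondrial acyl-CoA thioesterase, 61.2 against 29.1. *Cpt1a*, the gate for fatty acids into mitochondria, had 2339 against 1576, and *Slc25a20*, the carrier of acylcarnitines, differed by 0.48. The coactivator genes *Ppargc1a* and *Ppargc1b* differed by 0.78 and 0.57. *Acat1* and *Oxct1*, which act in the breakdown of ketone bodies, were lower at -0.32 and -0.26. *Pck1*, the rate-limiting enzyme of gluconeogenesis, had 1417 in AD-MSC and 707 in control, and *Apob*, the protein scaffold of chylomicrons, 2455 against 1116.

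Enzymes of drug and steroid metabolism belonged to the genes with the greatest positive differences. *Cyp2c55*, a cytochrome P450 abundant in the colon, had 4624 normalized reads in AD-MSC colons and 1429 in control colons, with a smallest counting error of 0.023 for its difference of 1.69. Its neighbour gene *Cyp2c65* had 78.2 against 8.57, whereas *Cyp2c68* of the same family had 272 against 339.9. The carboxylesterase genes *Ces2a*, *Ces2e* and *Ces2c* differed by 1.05, 0.81 and 0.70. Of 35 cytochrome P450 and conjugation genes 24 lay above 0, around 0.23, and *Cyp2f2* and *Cyp2e1* were the lowest at -1.12 and -0.97. *Hsd3b3* and *Hsd3b2*, hydroxysteroid dehydrogenases of steroid synthesis, had 443 against 169 and 145 against 64.2. *Mep1b*, a metalloprotease of the brush border, had 1137 in AD-MSC and 459 in control, and *Espn*, an actin bundler of microvilli, 344 against 145. *Btnl1*, a butyrophilin-like protein that sustains intraepithelial gamma delta T cells in the mouse, had 354 against 114, and all 4 members of its family that were measured lay above 0.

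The HNF4 element, a binding site of a transcription factor of gut and liver epithelium, was searched as CAAAGTCCA on both strands. It was found in 5 of 158 promoters of 2-fold higher genes and in 0 of 183 of 2-fold lower genes. It was present in 0.539% of member promoters and in 0.555% of all RefSeq promoters. The 5 genes were *Cyp2c65*, *Hsd3b3*, *H2-T3*, *Btnl2* and *Slc3a1*. None of 15 promoters of the surface colonocyte list held it, and over all members with a match 29 were higher and 28 lower. The promoters of *Cyp2c65* (chr19:39060756-39061055, plus strand) and *Hsd3b3* (chr3:98763079-98763378, minus strand) are given on the same build, with the match in capitals.
Cyp2c65: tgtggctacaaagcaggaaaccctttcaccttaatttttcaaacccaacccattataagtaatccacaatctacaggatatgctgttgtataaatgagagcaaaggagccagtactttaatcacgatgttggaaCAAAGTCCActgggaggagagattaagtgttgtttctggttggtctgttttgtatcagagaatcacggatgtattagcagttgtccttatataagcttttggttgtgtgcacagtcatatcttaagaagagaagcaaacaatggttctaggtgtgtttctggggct
Hsd3b3: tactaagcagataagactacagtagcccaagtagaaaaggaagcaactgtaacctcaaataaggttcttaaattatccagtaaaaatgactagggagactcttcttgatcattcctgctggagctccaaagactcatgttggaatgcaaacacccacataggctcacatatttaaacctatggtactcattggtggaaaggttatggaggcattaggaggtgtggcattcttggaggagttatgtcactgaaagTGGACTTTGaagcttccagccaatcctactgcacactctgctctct

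Interferon-stimulated genes had the highest medians of the lists with more than 3 members. In the list of the type I and III interferon response 33 of 40 genes were higher, 5 of them at least 2-fold, with a median of 0.46. *Rtp4*, *Rsad2*, *Ifit2*, *Ifit1* and *Oasl2* were the 2-fold members, and *Ifit1*, which binds viral RNA, had 190.1 normalized reads in AD-MSC colons and 91.5 in control colons. *Irf7*, the transcription factor that amplifies the response, had 397 against 208. Outside this list, *Ddx60*, an RNA helicase of antiviral defence, had 407 in AD-MSC and 121 in control, a difference of 1.75. *Mx1* and *Isg15*, also classical targets, differed by -0.081 and 0.13, and *Ifi27l2a* was lower at -1.02, so that the list was not uniform. The receptor-proximal factors *Stat2* and *Irf9* differed by 0.50 and 0.37.

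Of 29 targets of interferon gamma 24 lay above 0, and their median was 0.40. *Ido1*, which degrades tryptophan, had 109.6 normalized reads in AD-MSC and 16.7 in control. *Ubd*, a ubiquitin-like modifier, had 78.7 against 24.0, and *Gbp2*, a guanylate-binding protein that attacks intracellular pathogens, 1236 against 659. Of 10 measured guanylate-binding protein genes 9 were higher. *Cxcl10*, a chemokine that both interferon types and NF-kB induce, was the lowest of the list at -0.77, and *Cxcl9* was at 0.19. The apolipoprotein L family, whose members interferons induce, lay above 0 in all 8 measured genes with a median of 0.97, and *Apol10a* had 877 in AD-MSC and 383 in control. This family was picked after its values were seen. Class I presentation genes had a median of 0.21, and *H2-T3*, which encodes the thymus leukaemia antigen of intestinal epithelium, had 42.8 against 7.22.

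The interferon-stimulated response element, searched as GAAANNGAAA on both strands, was found in 14 of 27 promoters of the type I and III list and in 11 of 18 of the interferon gamma list, against 3.87% of member promoters and 3.99% of all RefSeq promoters. Among 2-fold higher genes it was found in 16 of 158 promoters (10.1%), *Apol9b*, *Apol10a*, *Apol10b* and *Apol11a* included, and among 2-fold lower genes in 6 of 183 (3.28%). Over all members the median difference was 0.0044 with a match and -0.013 without. To show where the element lies, the promoters of *Rsad2* (chr12:26456403-26456702, minus strand), *Ifit1* (chr19:34640639-34640938, plus strand), *Ddx60* (chr8:61927837-61928136, plus strand) and *Apol9b* (chr15:77411031-77411330, minus strand) are printed in the same way, each with its matches in capitals.
Rsad2: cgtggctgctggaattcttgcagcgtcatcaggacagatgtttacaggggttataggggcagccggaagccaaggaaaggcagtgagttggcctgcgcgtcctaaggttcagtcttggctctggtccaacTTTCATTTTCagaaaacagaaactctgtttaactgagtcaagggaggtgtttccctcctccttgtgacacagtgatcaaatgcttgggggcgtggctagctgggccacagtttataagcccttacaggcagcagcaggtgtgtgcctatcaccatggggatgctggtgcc
Ifit1: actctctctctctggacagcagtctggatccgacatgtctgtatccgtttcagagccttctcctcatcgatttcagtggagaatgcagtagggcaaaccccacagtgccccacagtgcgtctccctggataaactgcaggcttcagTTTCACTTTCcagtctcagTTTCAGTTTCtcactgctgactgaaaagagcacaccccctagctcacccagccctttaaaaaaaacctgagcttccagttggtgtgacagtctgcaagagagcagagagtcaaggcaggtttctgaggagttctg
Ddx60: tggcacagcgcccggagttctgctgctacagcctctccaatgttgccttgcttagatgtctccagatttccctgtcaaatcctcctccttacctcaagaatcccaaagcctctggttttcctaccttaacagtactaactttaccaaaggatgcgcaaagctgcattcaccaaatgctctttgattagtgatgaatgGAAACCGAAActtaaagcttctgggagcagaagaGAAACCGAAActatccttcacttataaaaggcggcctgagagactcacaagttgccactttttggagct
Apol9b: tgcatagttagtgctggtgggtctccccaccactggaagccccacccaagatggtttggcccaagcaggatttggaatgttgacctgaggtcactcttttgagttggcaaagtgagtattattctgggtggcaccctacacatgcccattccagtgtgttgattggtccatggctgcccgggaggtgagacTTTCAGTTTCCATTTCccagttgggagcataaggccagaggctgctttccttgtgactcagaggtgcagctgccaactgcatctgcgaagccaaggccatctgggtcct

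Other elements searched in the same 300 bases on both strands were less frequent in the lists. The heat shock element, GAANNTTCNNGAA, was found in 4 of 29 chaperone promoters (*Chordc1*, *Hspd1*, *Hspe1* and *Hsph1*, all lower) and in 0.662% of all RefSeq promoters. The cyclic AMP response element, TGACGTCA, was found in 7 of 183 promoters of 2-fold lower genes, *Areg*, *Epha2* and *Errfi1* included, and in 3.48% of member promoters and 2.03% of all. The E-box CACGTG was found in 14.8% of promoters of 2-fold lower and 4.43% of 2-fold higher genes, against 11.4% of members and 8.09% of all. The octamer ATGCAAAT was found in 1 of 13 promoters of the B cell list, and in 1.97% of all. The serum response element was found in 2 of 24 promoters of immediate early genes, *Egr2* and *Zfp36*, and in 1.81% of all. These matches describe letters in a short window and not binding.

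Of 7 members of the Muc gene family 6 were higher, and *Muc13* was lower at -0.26. Other genes of the goblet cell list lay on both sides of 0, with *Zg16* at 0.40 and *Ang4* at -3.52. *Muc2*, the gel-forming mucin of the colon, had 29464 normalized reads in AD-MSC colons and 17012 in control colons. A pair of further entries named MUC2, within the region just before *Muc2* on chromosome 7, differed by 0.91 and 0.97. *Muc4*, a membrane mucin, had 5168 against 2818, and *Atoh1*, the transcription factor that sets the secretory fate, 361 against 201. *B4galnt2*, the glycosyltransferase of the Sda antigen on colonic mucus, had 1361 in AD-MSC and 759.6 in control, whereas *B3gnt7*, an acetylglucosaminyltransferase, had 2224 against 4940.5. *Tff3*, the trefoil peptide of goblet cells, was nearly equal at 0.032. *Ang4*, an antimicrobial ribonuclease, had 13.8 against 159, and *Reg4*, a lectin of secretory cells, 142 against 402. Of 22 goblet cell genes 14 lay above 0, around a median of 0.17.

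Absorptive functions were for the most part near 0 or higher. In the surface colonocyte list 13 of 18 genes lay above 0 around a median of 0.13, and *Car4*, a membrane-bound carbonic anhydrase, had 12056 normalized reads in AD-MSC and 8454 in control. *Aqp8*, a water channel of the surface, had 1657 against 1136. *Slc9a2*, a sodium-proton exchanger, had 1216 against 664, and *Slc9a3*, another exchanger of the brush border, 1346 against 1008. The colonic proton pump gene *Atp12a*, whose product exchanges protons for potassium, went the other way with 2343 in AD-MSC and 7297 in control, the greatest negative difference among named genes with a mean above 1000. The potassium channel subunit *Kcne3* was lower at -0.80. *Clca4b*, a chloride channel accessory gene listed under its older name *AI747448*, had 541 against 1413. Tight junction and adhesion genes had a median of 0.031 and stayed between -0.39 and 0.51. *Vdr*, the vitamin D receptor, had 1568 in AD-MSC and 916 in control.

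**Figure D4:**
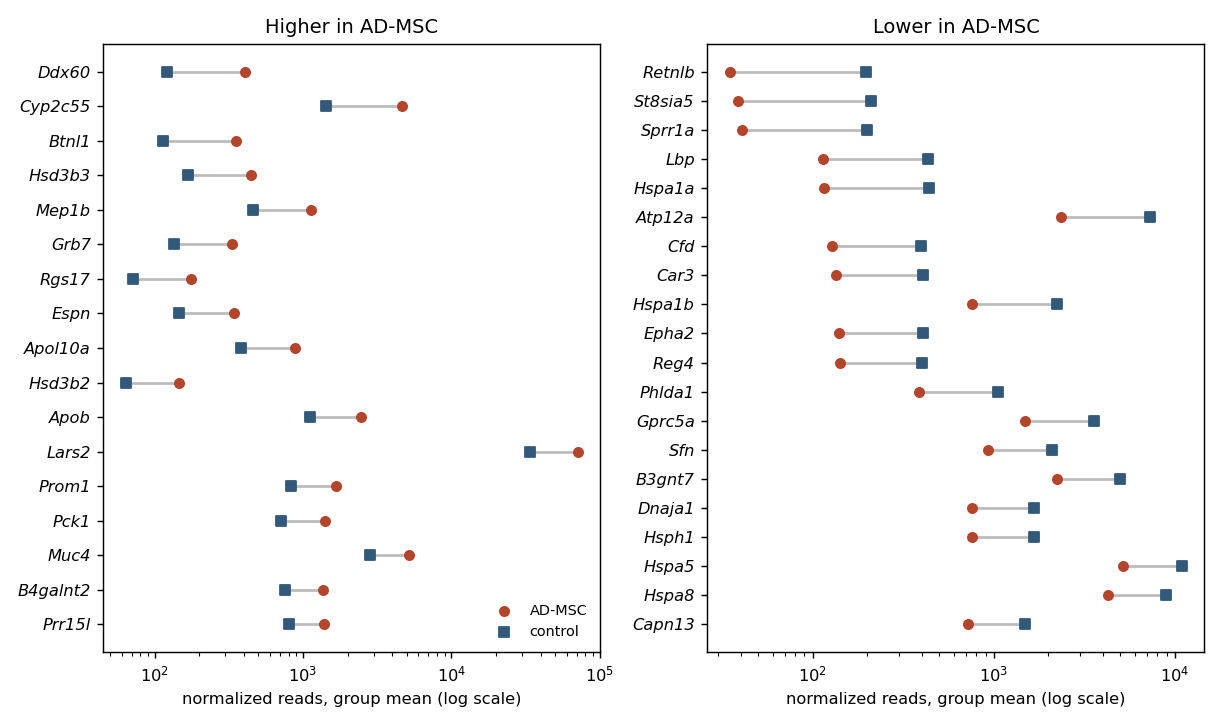
Group means of normalized reads on a log axis for most of the named genes with a mean of at least 100, AD-MSC as red circles and control as blue squares, higher genes in the left panel and lower genes in the right. *Cyp2c55*, with 4624 against 1429 reads, is among the higher genes, and *Atp12a*, with 2343 against 7297, is among the lower ones. *Retnlb* and *St8sia5* in the right panel rest on 1 AD-MSC library with at most 1 read.

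Genes that mark position along the gut differed between the Hox clusters. All 9 measured genes of the *Hoxa* cluster were higher in AD-MSC, with a median of 0.46, and *Hoxa13* had 345 normalized reads in AD-MSC and 251 in control. The posterior genes of the other clusters were lower. *Hoxb13*, which marks the distal colon, had 739 in AD-MSC and 1414 in control, a difference of -0.94 with a smallest counting error of 0.034. *Hoxd13* had 26.5 against 91.0 and *Hoxd11* 10.2 against 26.1. For *Hoxd10* 1 AD-MSC library held 1 read, and the other 2 had a mean of 11.7, against 22.1 in control. Of 13 genes numbered 1 to 9, 10 were higher, and of 7 genes numbered 10 to 13, 3 were higher, all of them *Hoxa*. *Krt36*, a keratin of the distal colon, had 3.91 against 39.8, and *Insl5*, a hormone of distal endocrine cells, 252 against 465. *Cdx2*, the intestinal homeobox gene, had 307 in AD-MSC and 184 in control. Proximal colon genes lay around 0.23, 8 of 14 above 0, and the list holds *Cyp2c55* and *Car4*. Distal colon genes lay around -0.26, 5 of 17 above 0. Where along the medial colon each piece was cut is not in the labels, and the part of position in the metabolic and *Atp12a* differences was not tested.

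**Figure D5:**
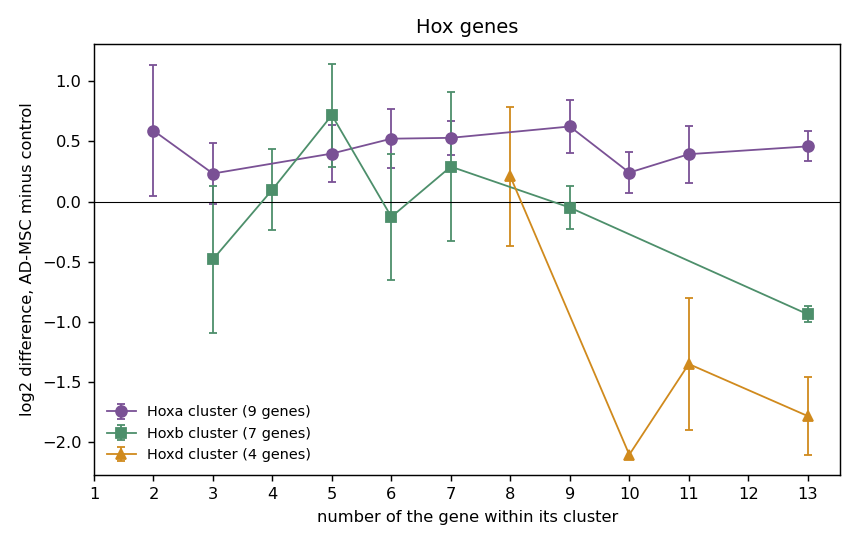
Log2 differences (AD-MSC minus control) of 20 Hox genes by their number within the cluster, with bars of 95% counting limits for genes above the floor in every library. *Hoxa* genes lie above 0 throughout, while *Hoxb13* lies at -0.94 and *Hoxd10*, *Hoxd11* and *Hoxd13* lie between -2.10 and -1.35.

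Most stromal lists, muscle, matrix and enteric neuron genes among them, had medians slightly above 0. Fibroblast genes had 12 of 23 above 0 and a median of 0.0084, and lymphatic endothelium had 2 of 9 above 0 and a median of -0.23. Myofibroblast and smooth muscle genes lay around 0.13, 17 of 20 above 0, and *Myh11*, smooth muscle myosin, had 38121 normalized reads in AD-MSC and 31308 in control. Of 49 collagen and matrix genes 41 were above 0, around a median of 0.13, and *Col3a1* had 4125 against 3482. *Lama3*, a laminin chain of the epithelial basement membrane, had 849.8 against 489.8. For enteric neurons 17 of 21 were above 0, around 0.20, but *Tac1*, the precursor of substance P, had 127 in AD-MSC and 293 in control. Endothelial genes had a median of 0.17. *Adra2a*, an inhibitory adrenergic receptor, had 71.0 against 12.9.

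Among genes with very many reads, which are not corrected for gene length, a few stood apart. *Lars2*, the gene of the mitochondrial leucyl-tRNA synthetase, had 71216 normalized reads in AD-MSC and 34029.9 in control, the most reads of any member with a 2-fold difference. By comparison, *Actb* had 23758 in AD-MSC and 29635 in control. Where the *Lars2* reads of these total RNA libraries lay within the gene was not examined. *1810030J14Rik* on chromosome 1, singled out after its values were seen because the rule for names leaves such clone names out, had 685 in AD-MSC and 9583 in control, the greatest difference above 1000 reads in either direction. *Prom1*, an apical membrane protein, had 1659 against 826. Among cytokine, growth factor and signalling genes, *Vegfa* differed by 0.53, *Tnf* by -0.16, *Tgfb1* by -0.30 and *Nfkb1* by -0.21. The glycolytic gene *Gapdh* had 620.0 in AD-MSC and 637 in control, a difference nearer to 0 than that of most of the reference genes given above.

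Several of the greatest negative differences rested on a single AD-MSC library. No group value lay below 1 normalized read, and the raw and normalized means together fit an average in which a library under 1 enters as 1. For 26 members that were at least 2-fold lower, at least 1 AD-MSC library was at this floor. The raw and normalized means together resolved 16 of them into 1 library with no read or 1 read and 2 libraries above the floor. *Retnlb*, an antibacterial protein of goblet cells, had a group value of 34.9 normalized reads in AD-MSC, against 198 in control, but 1 AD-MSC library held 1 read and the geometric mean of the other 2 was 206. *St8sia5*, a sialyltransferase, had 38.4 against 209, with no read in 1 library and a mean of 238 in the other 2. *Casp14*, a caspase of cornified epithelium, had 194 in the other 2 libraries, against 144 in control, and *Cps1*, the first enzyme of the urea cycle, 48.7 against 52.3. In 12 of the 16 genes the mean of these 2 libraries was less than 2-fold below control, and in 4 of the 12 it was above control. *Pax5*, a factor of B cell identity, stayed low on this reading, with 7.86 against 35.7, and so did *Ltb*, lymphotoxin beta, with 4.95 against 18.9. *Reg3g*, an antibacterial lectin, had 105 in the 2 AD-MSC libraries with reads, against 18.1 in control. For genes above the floor in every library the table does not show how single libraries lay.

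The UC-MSC colons, which share the control libraries, are given beside AD-MSC for the members the results turn on. *Cyp2c55* differed from control by 1.69 in AD-MSC and -0.23 in UC-MSC, and *Btnl1* by 1.64 and -0.73. *Hspa1b* differed by -1.56 and -2.89, *Lars2* by 1.07 and 2.12, and *Ido1* by 2.71 and 2.33. For *Areg* the values were -1.41 and -0.22, for *Gprc5a* -1.26 and 0.11, and for *Sprr1a* -2.29 and 0.81. As medians of lists, regenerating epithelium had -0.68 in AD-MSC and 0.52 in UC-MSC, and the type I and III interferon response 0.46 and 0.36. B cell genes had -1.93 and -0.74, and collagen and matrix genes 0.13 and 0.91. Whether the MSC groups differed was not tested. Of 82 lists with at least 3 members, 57 had a median within 0.25 of 0 in AD-MSC against control, 20 lay below and 5 above. The list with the highest median, prostate, seminal vesicle and bladder at 0.81, rested on 3 genes.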

How the data were processed

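Colon RNA of 3 AD-MSC and 3 control mice was analysed. The authors excluded RNA with an integrity number under 7 and made stranded total RNA libraries (SMARTer Pico Input). Reads of 50 bases, single-end, came from an Illumina sequencer. Tools named in the submitters' processing notes or the methods were Strand NGS, DESeq and bcl2fastq (version 1.8.4), with the build GRCm38 (mm10). The aligner, and whether counts used strand, is not given in the sources used here. Per the file headers, the deposited table holds, for each gene and group, a mean raw read count, which is not whole, and a normalized value. The normalized values were deposited as log2 group means made by the authors with DESeq, with a floor of 1 normalized read that was read from the values. No column gives a single library, so no test was run, and the counting error was worked out from the raw means as the smallest that 3 libraries of these depths can have.

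AD-MSC minus control was computed on the log2 scale in Python 3.11.15 with numpy 2.4.6, pandas 2.3.3 and matplotlib 3.10.9, and the code was tested on simulated data. Members and gene lists were chosen with earlier results of these data known. Named genes were the 10 with the greatest difference in each direction at each of 3 levels, divided at 100 and 1000 normalized reads, clone names left out, together with up to 6 of each of 85 lists and the genes the study measured by PCR. Other genes in the text were picked after their values were seen, among them the Apol, Hsd3b, Btnl, Gbp and Muc families and *1810030J14Rik*. Genes that overlap another gene (42.1% of members), antisense genes and near-identical copies (heat shock HSP70, globin, Apol, Gbp, Ifit, Tgtp and carboxylesterase genes) are less certain. Results for some genes are not reported here. RefSeq promoters on GRCm38.p6 were matched by gene identifier or symbol for 10578 members (78.6%). Alternatives were a pseudocount of 10, other minimum means, other scalings, all gene types, genes above the floor in all libraries, and differences centred by length.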

Additional observations from a re-analysis of the deposited data

How the results depend on the processing

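Shares and counts of 2-fold genes depended on how low levels were handled. With a pseudocount of 10 added to each group mean, 60 members were at least 2-fold higher and 122 lower, so that 33.0% of them were higher. Without a minimum mean the counts were 713 higher and 653 lower, with a minimum of 50 they were 57 and 78, and with a minimum of 200 they were 24 and 40. Restriction to genes above the floor in all libraries, equal totals of normalized reads, centring on the median, all gene types and centring by length (the last chosen after seeing the data) kept each count within 1.5 times. Of 716 list medians computed under these alternatives, 25 changed sign, in 15 lists. Of these only the mesothelium median, 0.094 with a minimum mean of 50, had been beyond 0.25, and the others had been at most 0.14 from 0. The B cell median shrank to -0.39 when genes averaging under 50 reads were dropped, which left 3 genes, and to -1.36 under the pseudocount. Of 3746 values of named genes under the alternatives, 3678 kept their direction and their side of 2-fold, 65 fell under 2-fold, 3 passed it and 0 reversed. No paired analysis was possible because the table gives group means without replicate numbers, and for the same reason no replicate could be left out. Depth limits genes between 10 and 100 reads, where the median of the smallest counting error was 0.17, against 0.03 above 1000 reads.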

Other observations

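Several further gene groups lay near 0 as a whole but held members with large differences. In the antimicrobial and acute phase list, with a median of 0.093 and 10 of 17 higher, the bactericidal lectin gene *Reg3b* had 61.2 normalized reads in AD-MSC and 21.4 in control, and *Saa3*, a serum amyloid A, had 52.5 against 25.5. *Wfdc2*, an antiprotease of secretory cells, had 595 against 1129.6. The median over cytokines and chemokines was -0.014, but the neutrophil attractants *Cxcl1* and *Cxcl5* had 10.9 against 35.2 and 17.7 against 69.3. All 5 measured neutrophil genes were lower, with a median of -0.38, but 10 of the 15 listed were below the minimum. *Mmp9* at -0.20 and *Lcn2* at -0.35 had smallest counting errors of 0.32 and 0.21, and *Cxcr4* had at least 1 AD-MSC library at the floor. *Il15*, a cytokine that sustains intraepithelial lymphocytes, had 39.5 in AD-MSC and 25.4 in control. Of the interleukin receptors of regulatory and innate lymphoid cells, *Il2ra* differed by -1.31 and *Il1rl1*, the receptor of interleukin 33, by -1.13.

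Arginine and polyamine genes lay on both sides, and redox genes were mostly lower. *Arg2*, the mitochondrial arginase, had 17.2 normalized reads in AD-MSC and 4.82 in control, whereas *Srm*, which makes spermidine, had 44.9 against 103 and *Odc1*, the first enzyme of polyamine synthesis, differed by -0.60. In the list of NRF2 targets and glutathione enzymes 7 of 32 were higher, the median was -0.24, and *Gpx2*, the glutathione peroxidase of the gut, had 394 against 846. Retinoid and vitamin genes had a median of 0.29, with the retinal dehydrogenase *Aldh1a1* at 454 against 262 and *Isx*, an intestinal homeobox gene, at 725 against 447. Among matrix proteases, *Timp1*, an inhibitor of metalloproteases, had 11.3 in AD-MSC and 22.5 in control, and the collagenase gene *Mmp13* had 53.2 against 21.1. For genes of crypt stem cells the median was -0.079, and single genes lay above and below 0. *Axin2*, a target of Wnt signalling, was higher, at 68.0 in AD-MSC against 39.6 in control. *Rnf43* and *Znrf3*, the other genes listed under both crypt stem cells and the Wnt pathway, were lower by -0.49 and -0.27. No common direction of Wnt genes is thus shown by *Axin2*.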
